A study of Mus musculus with 12 samples.

Results

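The chaperones described here are 10 mouse genes that help other proteins to fold, 6 in the cytosol (Hspa1a, Hspa1b, Hspb1, Hsph1, Dnajb1, and Hspa8) and 4 in the endoplasmic reticulum, or ER (Hspa5, Hsp90b1, Pdia4, and Sdf2l1). They were chosen by name, and their probes were found through the accession that the array design gives for each probe. A probe was matched for 9 of the 10 genes, 5 cytosolic and 4 ER, among 19648 genes kept in all. Hspa1b had no matched probe, and because Hspa1a and Hspa1b are near-identical copies, the Hspa1a probe may also have bound Hspa1b transcripts, so its values are uncertain between both genes.

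Expression was measured on 12 one-colour arrays, 1 for each model of Alzheimer's disease or aging, with the RNA of 3 animals mixed before each hybridization. The aged set held the prefrontal cortex of C57BL/6 mice at 1.5, 4, 17, and 22 months. The transgenic set held the hippocampus of C57BL/6 mice that overexpress mutated human NCSTN (10 months old) or wild-type human MAPT (12 months old), and of 5×FAD mice (6 months old), a transgenic model of amyloid deposition, so that age and transgene are confounded and cannot be told apart. The promoters that drive the transgenes are not given in the sources used here. The ICR set held the hippocampus of 7-week-old ICR mice, taken 14 days after amyloid-β (Aβ, 5 or 10 μM) or streptozotocin (STZ, 2.5 or 3 mg/kg) was injected into the brain ventricle, or 30 min after scopolamine at 1 mg/kg into the abdomen. Streptozotocin is a glucose analogue used to impair insulin signalling in the brain, and scopolamine blocks muscarinic acetylcholine receptors. Normal control arrays were not analysed here. With 1 array a model there is no replicate, so no test was possible, no error between animals can be given, and precision is limited by how few arrays there are.

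Cytosolic chaperones bind unfolded proteins and release them in cycles driven by ATP. When proteins unfold, heat shock factor 1 binds heat shock elements in the promoters of several of these genes and raises their transcription. In the ER, unfolded proteins activate a separate pathway, the unfolded protein response, whose factors bind ER stress response elements in the promoters of ER chaperone genes. Both classes are made in neurons and glia and are studied in Alzheimer's disease because protein aggregates load the folding machinery.

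These elements are shown first because they are the ones through which the classes are known to be controlled. RefSeq promoter windows of assembly GRCm38.p6, from 250 bases before to 50 bases after the start site, were found for 9 of the 10 genes, all but Hspa8. Stretches upstream of the start site are printed 5′ to 3′ on the strand of the gene, with the fixed letters of a matched motif in capitals. The motifs given next were searched on both strands, and the heat shock motifs overlap one another. GAANNTTC, a head-to-head pair of heat shock units, was in 7.86% of 32851 windows, TTCNNGAA, the tail-to-tail pair, in 8.52%, the run of 3 units GAANNTTCNNGAA in 0.603%, and the ER stress response element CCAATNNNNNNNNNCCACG in 0.119%. The stretches with a match lie at chr17:34972207-34972276 on the minus strand (Hspa1a), chr17:34959289-34959358 on the minus strand (Hspa1b), chr5:135887789-135887848 on the plus strand (Hspb1), chr5:149636357-149636416 on the minus strand (Hsph1), chr2:34771980-34772059 on the plus strand (Hspa5), and chr10:86705525-86705664 on the minus strand (Hsp90b1).
Hspa1a: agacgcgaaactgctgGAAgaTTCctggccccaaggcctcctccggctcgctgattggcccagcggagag
Hspa1b: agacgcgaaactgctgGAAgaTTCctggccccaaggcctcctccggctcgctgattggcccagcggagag
Hspb1: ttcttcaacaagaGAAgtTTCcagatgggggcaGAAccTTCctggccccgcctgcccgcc
Hsph1: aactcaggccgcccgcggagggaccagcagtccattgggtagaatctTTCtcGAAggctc
Hspa5: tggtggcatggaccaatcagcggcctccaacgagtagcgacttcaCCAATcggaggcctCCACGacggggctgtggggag
Hsp90b1: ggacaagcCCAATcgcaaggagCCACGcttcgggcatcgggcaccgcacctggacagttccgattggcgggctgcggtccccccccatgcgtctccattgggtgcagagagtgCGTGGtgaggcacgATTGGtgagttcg

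A heat shock motif was found in 4 of the 5 cytosolic windows and in none of the 4 ER windows, and the ER stress response element was found in 2 of the 4 ER windows and in none of the 5 cytosolic ones. The run of 3 units was found only in Hsph1, among the 9 windows, and there downstream of the start site. Hspb1 held 2 head-to-head pairs, and Hsp90b1 held 2 ER stress response elements, the second on the opposite strand. The whole windows of Hspa1a and Hspa1b were identical at 296 of 300 bases, and the stretches printed for them do not differ. These letters were not in the windows of Dnajb1, Pdia4, or Sdf2l1. A match is a description of the letters, not a site that was measured.

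Before the results, 2 properties of the arrays bear on them. The methods describe all animals as male, but Xist, an RNA of the inactive X chromosome of females, was well above background on the 3 transgenic arrays (log2 signal of 9.20 to 9.58) and on none of the other 9, whereas the Y-linked genes Ddx3y and Eif2s3y were well above background on the other 9 and on none of these 3. Each set was therefore compared within itself. Markers of choroid plexus, the secretory tissue of the ventricles, differed widely within sets: transthyretin (Ttr) had a log2 signal of 15.6 at 17 months against 5.11 to 6.85 at the other ages, and 17.3 to 17.4 on the Aβ and scopolamine arrays against 11.3 and 12.1 on the STZ arrays. Of the region markers, Cux2 of the neocortical list was at 7.78 to 8.82 on the cortex arrays and at 6.30 to 7.28 on the hippocampal ones. Of the hippocampal list, Lct was at 7.16 to 8.46 on the cortex arrays and at 11.4 to 12.3 on the hippocampal ones, and Prox1 and Dsp were also higher on every hippocampal array than on any cortex array. Wfs1 of that list overlapped, at 12.4 to 13.6 on the cortex and 13.3 to 14.8 on the hippocampal arrays. In bulk tissue, fewer cells of a type and less RNA per cell cannot be told apart.

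Values are log2 of the processed signal after quantile normalization over the 12 arrays. A ratio is the log2 value on an array minus the mean of the other arrays of its set, so the ratios of a gene within a set sum to 0. All 12 probes of the 9 genes were well above background on all 12 arrays. The range of a gene within a set was called at 2-fold, or 1 on the log2 scale. By that limit 1 of 9 chaperones differed in the cortex (Hspb1), 1 of 9 in the transgenic hippocampus (Hspa1a), and 1 of 9 in the ICR hippocampus (Hspb1). Among all genes, 14.2%, 16.7%, and 20.9% passed the same limit in these sets, and among genes well above background on every array of the set 6.1%, 13.9%, and 9.22% did. At 1.5-fold, 4, 6, and 3 of 9 chaperones passed, against 31.5%, 37.6%, and 37% of all genes and 23.1%, 35.5%, and 24.6% of those well above background. The 2-fold counts lie near the background, and the 1.5-fold counts in the cortex and the transgenic set lie above it. With only 9 genes and no replicate, the counts are not a result about chaperones as a group.

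No chaperone differed by 2-fold on any single array from the other arrays of its set, 0 of 9 on each of the 12 arrays. The share of all genes that did was 4.4% at 1.5 months, 3.46% at 4 months, 4.16% at 17 months, and 3.54% at 22 months. It was 4.76% for NCSTN, 4.79% for MAPT, and 10.7% for 5×FAD. In the ICR set it was 5.4% for Aβ 5 μM, 5.72% for Aβ 10 μM, 7.29% for STZ 2.5 mg/kg, 4.98% for STZ 3 mg/kg, and 5.1% for scopolamine. Differences below that limit are described next as values, with no test.

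**Figure D1:**
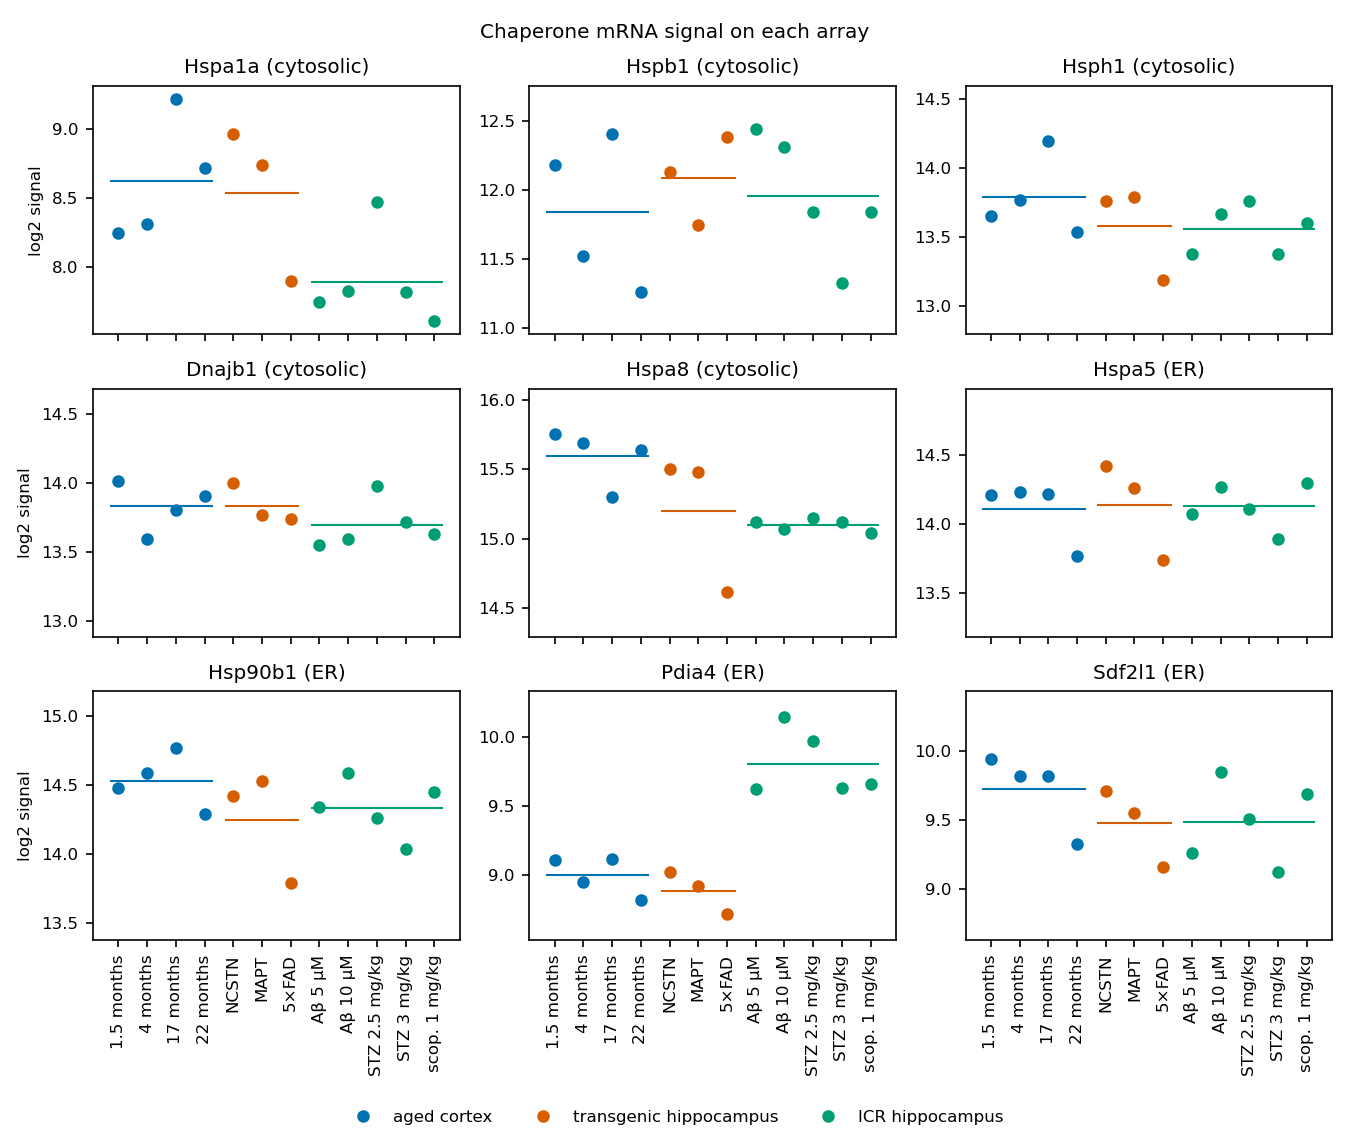
Log2 signal of the 9 measured chaperones (vertical axis, quantile normalized, each panel spanning the same number of log2 units) on the 12 arrays (horizontal axis), coloured by set; each point is 1 array of RNA pooled from 3 animals and each line is the mean of a set. Hspa1a was highest at 17 months (9.22), and 8 of the 9 genes were lowest within the transgenic set on the 5×FAD array.

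Hspa1a encodes the stress-inducible Hsp70 chaperone, which is scarce in unstressed cells. In the cortex its log2 signal was 8.25 at 1.5 months, 8.31 at 4 months, 9.22 at 17 months, and 8.72 at 22 months. Both older ages were higher than both younger ones, and the range of 0.97 stayed just under 2-fold. In the transgenic hippocampus Hspa1a was at 8.97 in NCSTN, 8.74 in MAPT, and 7.90 in 5×FAD, a range of 1.07 that passed the 2-fold limit. The 5×FAD array was the low one. Among the ICR arrays Hspa1a was at 7.75 and 7.83 on the Aβ 5 and 10 μM arrays, 8.48 and 7.82 on the STZ 2.5 and 3 mg/kg arrays, and 7.61 with scopolamine. The STZ 2.5 mg/kg array stood above the other 4, with a ratio of 0.72, and the higher STZ dose did not.

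Hspb1 encodes a small heat shock protein that holds unfolded proteins in solution and is made largely by glia and vessels. In the cortex its signal was 12.18 at 1.5 months, 11.52 at 4 months, 12.40 at 17 months, and 11.26 at 22 months. The range of 1.14 passed the 2-fold limit, but the values alternated with age, and without either the 17-month or the 22-month array no chaperone passed in the cortex. In the transgenic set Hspb1 was at 12.13 in NCSTN, 11.74 in MAPT, and 12.38 in 5×FAD. It was the only chaperone that was highest in 5×FAD, with a ratio of 0.44. Among the ICR arrays it was at 12.44 and 12.31 on the Aβ 5 and 10 μM arrays, 11.84 and 11.32 on the STZ 2.5 and 3 mg/kg arrays, and 11.84 with scopolamine. Both Aβ arrays lay above the other 3, and the range of 1.12 passed the 2-fold limit but did not without the Aβ 5 μM or the STZ 3 mg/kg array, when no chaperone passed.

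Hsph1 encodes an Hsp110 protein, which exchanges the nucleotide of Hsp70 and so resets its cycle. In the cortex it was at 13.65, 13.77, 14.20, and 13.54 at 1.5, 4, 17, and 22 months. The 17-month array was highest, as for Hspa1a and Hspb1, with a ratio of 0.55. In the transgenic set it was at 13.76 in NCSTN, 13.79 in MAPT, and 13.19 in 5×FAD. ICR hippocampus gave 13.38 and 13.67 on the Aβ 5 and 10 μM arrays, 13.76 and 13.38 on the STZ 2.5 and 3 mg/kg arrays, and 13.60 with scopolamine, a range of only 0.39.

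Dnajb1 encodes an Hsp40 cochaperone that hands substrates to Hsp70 and starts ATP hydrolysis. Its signal was 14.02, 13.60, 13.81, and 13.91 at 1.5, 4, 17, and 22 months, 14.00 in NCSTN, 13.77 in MAPT, and 13.74 in 5×FAD. ICR hippocampus gave 13.55 and 13.60 on the Aβ 5 and 10 μM arrays, 13.98 and 13.72 on the STZ 2.5 and 3 mg/kg arrays, and 13.63 with scopolamine. Dnajb1 did not reach 1.5-fold in any set. Like Hspa1a and Hsph1, it was highest in the ICR set on the STZ 2.5 mg/kg array, with a ratio of 0.36.

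Hspa8 encodes the constitutive Hsc70 protein, which also uncoats clathrin vesicles at synapses. Its mean over 3 probes was 15.76, 15.69, 15.30, and 15.64 at 1.5, 4, 17, and 22 months, 15.50 in NCSTN, 15.48 in MAPT, and 14.61 in 5×FAD. The 5×FAD array was low by 0.88 and the other 2 transgenic arrays were nearly equal. Over the ICR arrays it ranged over only 0.11, from 15.04 with scopolamine to 15.15 with STZ 2.5 mg/kg, a smaller range than for all but 6.38% of the genes.

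The 3 Hspa8 probes did not move alike. At 17 months probe A_52_P12877 was 1.08 below the other ages (a ratio of -1.08), whereas A_55_P2069721 and A_55_P2080603 had ratios of -0.02 and -0.08. The low Hspa8 value at 17 months thus came from 1 probe. On the 5×FAD array all 3 were low, with ratios of -0.41 for A_52_P12877, -1.05 for A_55_P2069721, and -1.18 for A_55_P2080603. A pair of its probes therefore passed 2-fold on the 5×FAD array and the mean of the 3 did not. The 2 Hsph1 probes differed by at most 0.39 in their ratios, and the other 7 genes had 1 probe each.

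**Figure D2:**
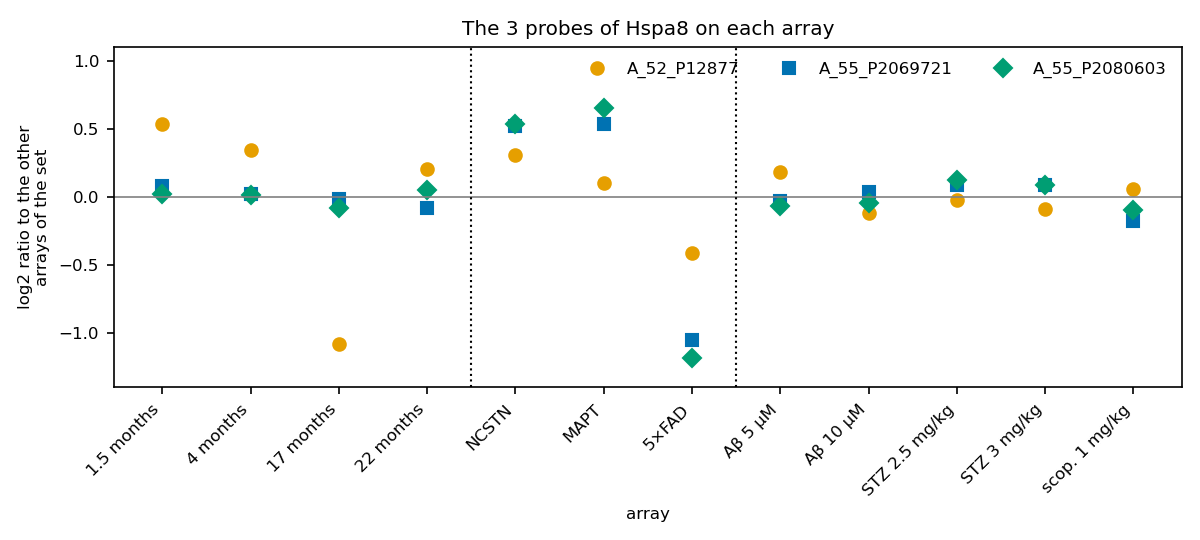
Log2 ratio of each of the 3 Hspa8 probes to the other arrays of the set (vertical axis) on the 12 arrays (horizontal axis); dotted lines separate the 3 sets and each symbol is 1 probe. All 3 probes were below 0 on the 5×FAD array, whereas only A_52_P12877 was far below 0 at 17 months (-1.08).

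Hspa5 encodes BiP, the Hsp70 of the ER, which also holds the sensors of the unfolded protein response inactive. Its signal was 14.21, 14.23, 14.22, and 13.77 at 1.5, 4, 17, and 22 months, 14.42 in NCSTN, 14.26 in MAPT, and 13.74 in 5×FAD. The first 3 ages lay within 0.02 of each other and the 22-month array was the low one, by 0.45. In the ICR set Hspa5 was at 14.07 and 14.27 on the Aβ 5 and 10 μM arrays, 14.11 and 13.89 on the STZ 2.5 and 3 mg/kg arrays, and 14.30 with scopolamine. STZ 3 mg/kg was lowest.

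Hsp90b1 encodes Grp94, the Hsp90 of the ER, which folds integrins and Toll-like receptors. It was at 14.48, 14.59, 14.77, and 14.29 at 1.5, 4, 17, and 22 months, 14.42 in NCSTN, 14.53 in MAPT, and 13.79 in 5×FAD. In the ICR set it was at 14.34 and 14.59 on the Aβ 5 and 10 μM arrays, 14.26 and 14.04 on the STZ 2.5 and 3 mg/kg arrays, and 14.45 with scopolamine. The low arrays of the 3 sets, 22 months, 5×FAD, and STZ 3 mg/kg, were those that were low for Hspa5.

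Sdf2l1 encodes a partner of BiP and its cochaperones that keeps substrates soluble. It was at 9.94, 9.81, 9.82, and 9.33 at 1.5, 4, 17, and 22 months, 9.71 in NCSTN, 9.55 in MAPT, and 9.16 in 5×FAD. ICR hippocampus gave 9.26 and 9.85 on the Aβ 5 and 10 μM arrays, 9.50 and 9.12 on the STZ 2.5 and 3 mg/kg arrays, and 9.69 with scopolamine. The same 3 arrays were again lowest, and the ranges of 0.61 in the cortex and 0.73 in the ICR set were the widest of the ER genes in these sets.

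Pdia4 encodes a protein disulfide isomerase, which forms and shuffles disulfide bonds in the ER. It was at 9.11, 8.94, 9.12, and 8.81 at 1.5, 4, 17, and 22 months, 9.02 in NCSTN, 8.92 in MAPT, and 8.71 in 5×FAD. ICR hippocampus gave 9.62 and 10.14 on the Aβ 5 and 10 μM arrays, 9.97 and 9.63 on the STZ 2.5 and 3 mg/kg arrays, and 9.66 with scopolamine. All 5 ICR arrays lay above all 7 C57BL/6 arrays, with means of 9.80 and 8.95. Pdia4 was the 1 chaperone of 9 whose ICR and C57BL/6 arrays did not overlap, against 11.6% of all genes. Strain, age, and treatment, and in part region and sex, cannot be told apart in that difference.

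**Figure D3:**
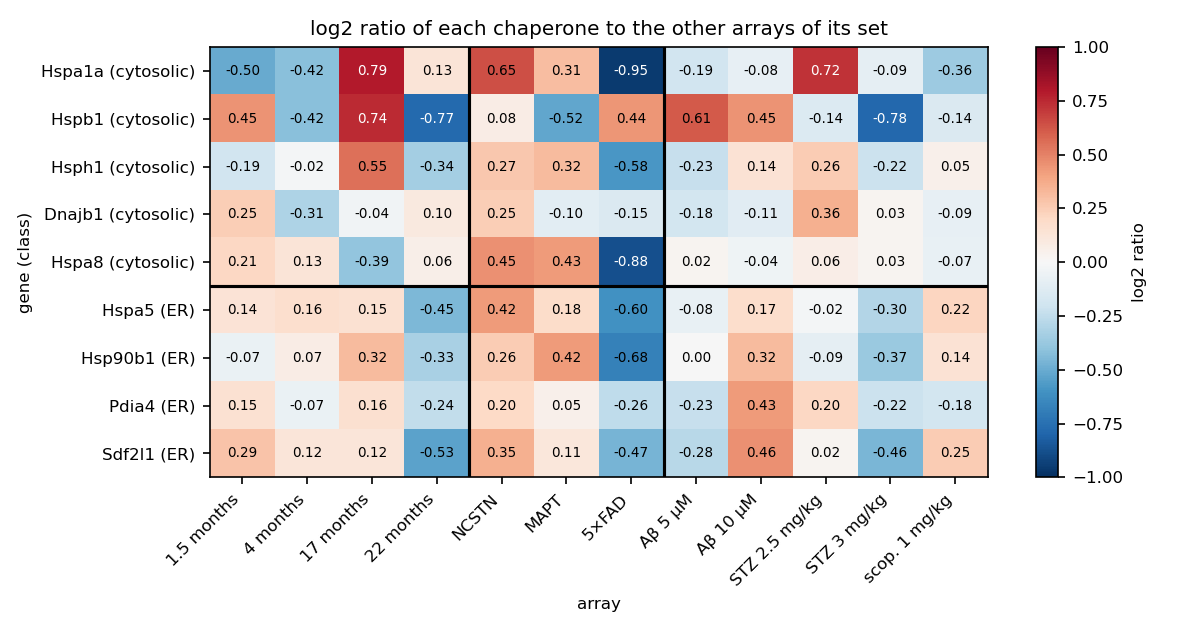
Log2 ratio of each chaperone (rows, 5 cytosolic above and 4 ER below the line) to the other arrays of its set on each of the 12 arrays (columns, sets separated by lines); red is higher, blue is lower, and each cell prints its ratio. The 4 ER rows were all below 0 at 22 months, in 5×FAD, with STZ 3 mg/kg, and, for Hsp90b1 only barely, with Aβ 5 μM. The cytosolic rows were mixed on each of these arrays.

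A range from lowest to highest tends to widen with the number of genes. By that range, ratios of the 4 ER chaperones were closer to one another on most arrays than those of the 5 cytosolic ones. All 4 were below 0 at 22 months (ratios of -0.53 to -0.24, median -0.39), in 5×FAD (-0.68 to -0.26, median -0.54), and with STZ 3 mg/kg (-0.46 to -0.22, median -0.33). They were also all below 0 with Aβ 5 μM (-0.28 to -6.51e-05, median -0.15), where Hsp90b1 was level with the other ICR arrays. All 4 were above 0 at 17 months (0.12 to 0.32, median 0.16), in NCSTN (0.20 to 0.42, median 0.30), in MAPT (0.05 to 0.42, median 0.15, with Pdia4 at -0.02 in the deposited matrix), and with Aβ 10 μM (0.17 to 0.46, median 0.37). Without the 5×FAD array, Hspa5 (-0.16), Pdia4 (-0.10), and Sdf2l1 (-0.16) were below 0 in MAPT, and Hsp90b1 (-0.11) in NCSTN. With 1 reference array left out, Sdf2l1 and Hspa5 at 17 months reached -0.06 and -0.0009. With Aβ 10 μM the 4 genes stayed between 0.105 and 0.55. The medians of all genes on the 12 arrays lay between -0.05 and 0.03. Of all genes, 46.8% were below 0 at 22 months, 56% in 5×FAD, 46.4% with STZ 3 mg/kg, and 57.7% with Aβ 5 μM. On the arrays where the 4 ER genes were above 0, 51.9% of all genes were below 0 at 17 months. That share was 45.1% in NCSTN, 49.8% in MAPT, and 52.4% with Aβ 10 μM. With values centred within each set, Pearson's r over the 12 arrays was 0.63 to 0.91 for the 6 pairs of ER genes, with a median of 0.80, and was highest for Hspa5 with Sdf2l1. For the 10 pairs of cytosolic genes it was -0.40 to 0.78 with a median of 0.23, and was highest for Hspa1a with Hsph1. For the 20 pairs across the classes it was -0.13 to 0.83 with a median of 0.36, and was highest for Hsph1 with Hsp90b1. Cytosolic Hsph1 thus had r of 0.66 to 0.83 with the 4 ER genes. With Hspb1, Dnajb1, and Hspa8 of its own class it had 0.18, 0.18, and 0.29. These correlations are descriptions without a test, because the points share arrays and hybridizations. Without the 3 transgenic arrays, an alternative chosen after the data had been seen, the medians were 0.78, 0.09, and 0.18.

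**Figure D4:**
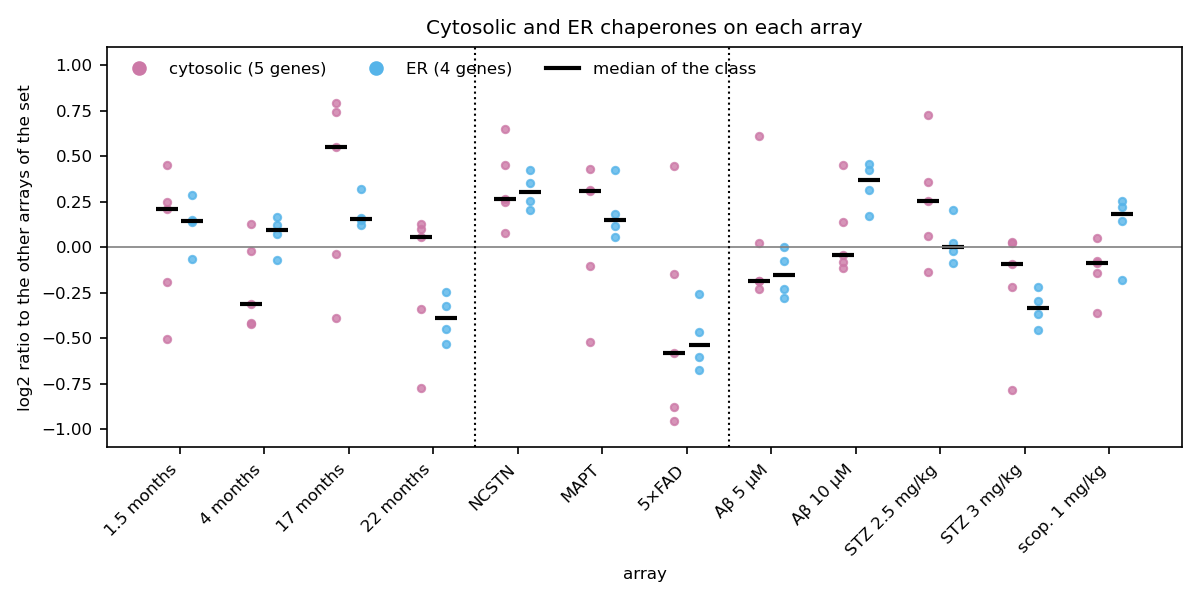
Log2 ratio to the other arrays of the set (vertical axis) for the 5 cytosolic (left, pink) and 4 ER chaperones (right, blue) on each of the 12 arrays (horizontal axis); points are genes, black bars are class medians, and dotted lines separate the sets. From lowest to highest, cytosolic genes spread more widely than ER genes on 11 of the 12 arrays, all but scopolamine. Such a range tends to widen with the number of genes, which was larger for the cytosolic class.

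The difference between the class medians, cytosolic minus ER, was -0.41 at 4 months, 0.40 at 17 months, and 0.44 at 22 months. At 17 months the cytosolic median was 0.55 and the ER median 0.16, and at 22 months they were 0.06 and -0.39. At 1.5 months the difference was 0.07. Taken directly, 22 minus 17 months was -0.50 for the cytosolic median and -0.47 for the ER median, so both classes were lower at 22 months. Dnajb1 (0.10) and Hspa8 (0.335) went the other way. The 17-month array, where Hspa1a, Hspb1, and Hsph1 were each highest, was also the one with a choroid plexus signal, with a median ratio of 1.82 for the 4 markers of that list, of which 3 were above 0. Red blood cell markers also differed between both older ages, with all 3 above 0 at 17 months (median 0.72) and all 3 below 0 at 22 months (median -0.64). The part of these tissues in the cortex values was not tested. Without the 17-month array the class difference at 22 months was 0.26, and without the 22-month array that at 4 months was -0.26. With class means in place of medians it was 0.14 at 17 months and 0.22 at 22 months. With any 1 reference array left out, the 17-month one included, the 4 ER ratios at 22 months were all below 0, between -0.55 and -0.21.

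In the ICR set, the class difference was -0.03 for Aβ 5 μM, -0.41 for Aβ 10 μM, 0.25 for STZ 2.5 mg/kg, 0.24 for STZ 3 mg/kg, and -0.27 for scopolamine. From Aβ 5 to 10 μM the ER genes were higher by 0.20 (Hspa5), 0.25 (Hsp90b1), 0.53 (Pdia4), and 0.59 (Sdf2l1), and the cytosolic median was higher by 0.06. The cytosolic genes were mixed, with differences of 0.295 for Hsph1, 0.08 for Hspa1a, 0.06 for Dnajb1, -0.05 for Hspa8, and -0.13 for Hspb1. Hsph1 thus rose by more than Hspa5 and Hsp90b1. From STZ 2.5 to 3 mg/kg all 9 chaperones were lower, from -0.03 for Hspa8 to -0.65 for Hspa1a, with medians of -0.38 for the cytosolic and -0.28 for the ER class, whereas the median of all genes moved by 0.01. The share of all genes that were lower between these doses was not counted. Choroid plexus markers were high on both Aβ arrays, with median ratios of 2.74 and 2.87, and low on both STZ arrays, with -4.78 and -3.40. Cux2 of the neocortical list was above 0 with STZ 2.5 mg/kg (0.66) and 3 mg/kg (0.34). It was below 0 with Aβ 5 μM (-0.555), Aβ 10 μM (-0.11), and scopolamine (-0.33). Red blood cell markers went from a median ratio of -0.29 with Aβ 5 μM, all 3 below 0, to 0.69 with Aβ 10 μM, all 3 above 0. From STZ 2.5 to 3 mg/kg, immediate early genes went from a median of 0.43 to -0.24. With the lower dose 10 of 10 were above 0, the lowest only barely (0.003), and with the higher dose 9 of 10 were below 0. Hippocampal markers went from a median of 0.61 to -0.22. The part of these shifts in the dose differences of the chaperones was not tested.

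In the transgenic set, the class difference was -0.04 for NCSTN, 0.16 for MAPT, and -0.04 for 5×FAD, and both class medians lay on the same side on each array. Because the ratios sum to 0, the low 5×FAD array raises those of NCSTN and MAPT. Taken directly, NCSTN minus MAPT was 0.23 for the cytosolic and 0.13 for the ER median. Hsph1 (-0.03) and Hsp90b1 (-0.11) went the other way. On the 5×FAD array 8 of 9 chaperones were below 0, with a median of -0.58, against 56% of all genes below 0 and a median of -0.05. The 4 that were at least 1.5-fold lower were Hspa1a (-0.95), Hspa8 (-0.88), Hsp90b1 (-0.68), and Hspa5 (-0.60), against 13.5% of all genes and 13.8% of those well above background. This limit for 1 array was chosen after the data had been seen. The 8 genes were lower in 5×FAD than in NCSTN and than in MAPT, each taken alone, with Hspa1a at -1.07 and -0.84. The spread of ratios over genes well above background was also widest on this array, with a robust SD of 0.48, against 0.14 to 0.30 on the other 11.

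Markers of other cell types also differed on the same array. All 4 microglial markers were higher in 5×FAD, with ratios of 2.75 for Tyrobp, 2.14 for C1qa, 1.92 for Cx3cr1, and 1.37 for Aif1, and all 4 astrocyte markers were above 0, led by Gfap at 1.79. All 4 neuronal markers were below 0, with a median of -0.17. All 10 immediate early genes, which neurons switch on with activity, were below 0, with a median of -1.63 and Arc at -2.28. The part of these shifts in the chaperone values was not tested.

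The 2-fold limit was also applied to the other genes of the folding pathways. Of all genes, 14.2% passed it in the cortex, 16.7% in the transgenic set, and 20.9% in the ICR set. Among 20 measured of 22 other ER chaperones and folding enzymes, none passed in the cortex, 3 in the transgenic set, and 1 in the ICR set. The 3 were all lowest in 5×FAD: Dnajc3, a BiP cochaperone, at a ratio of -1.18, Ero1a, an oxidase that recharges disulfide isomerases, at -1.03, and Hyou1, a nucleotide exchange factor of BiP, at -0.98. On that array 15 of the 20 were below 0, with a median of -0.28, against 56% of all genes below 0. The ICR gene was Dnajb11, another BiP cochaperone, at 1.20 with STZ 2.5 mg/kg and -1.08 with Aβ 10 μM. Of this list, 16 of 20 were below 0 with STZ 3 mg/kg and 16 of 20 with STZ 2.5 mg/kg, against 46.4% and 49.2% of all genes.

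Among 25 measured of 26 other cytosolic chaperones and cochaperones, none passed in the cortex or the ICR set and 1 passed in the transgenic set, Dnajb4, an Hsp40 protein, at -0.92 in 5×FAD. On that array 19 of 25 were below 0, with a median of -0.19, against 56% of all genes below 0. Of the 4 genes listed as heat shock factors, which include the factor-binding protein Hsbp1, only Hsf4 passed. It did so in the cortex, at -1.07 at 1.5 months and 1.07 at 17 months. None of the 7 mitochondrial chaperones passed in any set, with median ranges of 0.15 in the cortex, 0.21 in the transgenic set, and 0.18 in the ICR set, against 0.39, 0.45, and 0.41 for all genes.

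Of 10 sensors and factors of the unfolded protein response, Atf3 and Trib3, which are induced by the PERK branch, passed in the transgenic set. Both were high in 5×FAD, at 2.75 and 1.30, where the 4 ER chaperones were low. On that array 6 of the 10 were below 0, with a median of -0.16, against 56% of all genes below 0. Atf3 also passed in the cortex, from -0.85 at 1.5 months to 0.87 at 17 months. Trib3 passed in the ICR set, from -1.02 with STZ 2.5 mg/kg to 0.97 with Aβ 5 μM. Of 10 genes of ER-associated degradation, which returns misfolded proteins to the cytosol, only Derl3 passed, in the ICR set, from -0.95 with STZ 3 mg/kg to 0.77 with STZ 2.5 mg/kg, and 3 of the 10 were below 0 in 5×FAD. The cold-inducible genes Cirbp and Rbm3 did not reach 2-fold, and Cirbp was at 0.81 in 5×FAD.

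The genes on no list whose pattern over the 12 arrays was most like the mean of the ER chaperones, among 2647 compared, were Crem, with a Pearson's r of 0.89, Sox5 (0.77), Akr1c14 (0.76), Trim29 (0.74), and Fosl2 (0.74). For the mean of the cytosolic chaperones they were Rnu1b6 (0.86), Krtap19-4 (0.86), Mrgprg (0.84), Cyren (0.84), and Slitrk2 (0.83). The first of each were picked as the highest of all genes compared, so the values are descriptions.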

How the data were processed

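RNA was hybridized to Agilent Mouse Whole Genome 44K arrays. The authors deposited the scanner intensities of each array, extracted with Feature Extraction (version not given in the sources used here), with local background and flags and no normalization between arrays, and a matrix of processed intensities, used as an alternative. Their methods name a 1.4-fold filter over local background and quantile normalization. Here, log2 of the deposited processed intensity was taken, outlier spots (110 to 234 per array) were left out, and spots of a probe were averaged. No spot was saturated. Probes at least 1.4-fold over background on all 12 arrays (36520 of 39429) were quantile normalized; accessions matched a RefSeq symbol of GRCm38.p6 for 69.8% of the probes, and probes of a gene were averaged. Xist and the Y-linked genes were read from unfiltered probes.

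Samples were grouped by the labels, 1 array each, and compared within strain and region. No test was run. Of 6 cytosolic genes planned, 5 were measured. The members and lists were chosen with earlier results of these data known. Named genes were the members, at most the 4 widest-ranging genes per list and set that passed 2-fold and were well above background on every array of the set, the 5 most alike genes per class (SD of at least 0.3), and sex-linked genes, and some genes that this rule covers are not reported here; other genes given by name (marker values, Cirbp, and Rbm3) were chosen after their values were seen. Lists were other cytosolic, mitochondrial, and ER chaperones, heat shock factors, ER-associated degradation, the unfolded protein response, cold-inducible, immediate early, and glucocorticoid-responsive genes, and markers of neurons, astrocytes, microglia, endothelium, choroid plexus, red blood cells, hippocampus, and neocortex. Alternatives were other scalings, filters, probes, references, and summaries, and normexp on the median signals with an offset of 50; the 1.5-fold limit on 1 array, the background over genes well above background at 1.5-fold, and correlations without the transgenic set were chosen later, with the data in view. The scripts were tested on simulated data. On simulated data, quantile normalization shortened decreases of genes near background, which affects the shares over all genes but no member. Python 3.11.15 (numpy 2.4.6, pandas 2.3.3, matplotlib 3.10.9) and R 4.3.3 (limma 3.58.1) were used.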

Additional observations from a re-analysis of the deposited data

How the results depend on the processing

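The Hspb1 ranges passed 2-fold under all 7 other tables of values tried. The transgenic count of 1 was Hspa1a with a range of 1.07, but Hspa8 (1.05) in its place with scaling to the 75th percentile, when Hspa1a was at 0.94; it was 0 with the deposited matrix (0.91 for Hspa1a) and 0 with normexp (0.82), and 2 with the brightest probe, when Hspa8 also passed (1.22). With the deposited matrix 2 genes passed in the ICR set (Hspa1a too, 1.30). Calls on a single array went from 0 to 1 with the matrix (Hspa1a with STZ 2.5 mg/kg, 1.04) and to 1 with the brightest probe (Hspa8 in 5×FAD). At 1.5-fold 4, 6, and 3 genes passed. With 1 array left out, each set's count was 0 to 1.

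The class difference kept its sign under all alternatives run at 4, 17, and 22 months, with Aβ 10 μM, both STZ doses, and scopolamine, and not on the other 5 arrays, where it was small. With class means it was 0.14 at 17 months, 0.22 at 22 months, -0.27 for Aβ 10 μM, 0.13 for STZ 3 mg/kg, and 0.15 for Aβ 5 μM. With 75th percentile scaling it was 0.12 for STZ 3 mg/kg, and with the matrix 0.13 for STZ 2.5 mg/kg. Without the 17-month array it was 0.26 at 22 months, without the 22-month array -0.26 at 4 months, and with 1 reference array left out it was 0.12 to 0.42 for STZ 3 mg/kg, highest without STZ 2.5 mg/kg and lowest without scopolamine. With the matrix the median ratio of all genes was 0.24 for STZ 2.5 mg/kg, -0.22 for scopolamine, and -0.14 for Aβ 10 μM. The matrix turned the ratios of Sdf2l1 with scopolamine (0.25 to -0.08), Hspa5 (-0.02 to 0.10) and Hsp90b1 (-0.09 to 0.03) with STZ 2.5 mg/kg, Hspa1a with STZ 3 mg/kg (-0.09 to 0.02), and Pdia4 in MAPT (0.05 to -0.02). Scaling to the 75th percentile turned Hspa8 with Aβ 5 μM and Hspa5 with STZ 2.5 mg/kg, and the brightest probe turned Hspa8 with Aβ 5 μM. The ER genes stayed below 0 at 22 months, in 5×FAD, and with Aβ 5 μM and STZ 3 mg/kg in all 8 tables. With 1 reference array left out, the Hsp90b1 ratio with Aβ 5 μM lay between -0.10 and 0.08. The causes were not tested. Averaging Hspa1a with Hspa1b was not run, because Hspa1b had no probe. No paired analysis was possible because each group is 1 array.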

Other observations

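Several lists outside the folding pathways had values not yet described. Of 10 immediate early genes, 4 passed the 2-fold limit in the cortex, 9 in the transgenic set, and 4 in the ICR set. All 10 were above 0 on the scopolamine and STZ 2.5 mg/kg arrays, the lowest only barely (0.0009 and 0.003). Of all genes, 51.7% and 49.2% were below 0 on these arrays. Of 6 glucocorticoid-responsive genes, Sgk1, a kinase, passed in the transgenic set (1.19 in 5×FAD) and in the ICR set (0.98 with scopolamine and -0.89 with STZ 2.5 mg/kg), and Sult1a1, a sulfotransferase, passed in the cortex (0.69 at 17 months and -0.70 at 22 months) and in the ICR set (0.77 with Aβ 5 μM). Cldn5 of endothelium passed in the transgenic set (-1.02 in 5×FAD) and in the ICR set (-0.78 with scopolamine). Hba-a1 of red blood cells passed in the cortex, at 0.74 at 17 months and -0.64 at 22 months. Choroid plexus markers passed for 4 of 4 genes in the cortex, 1 in the transgenic set (Kcnj13), and 4 in the ICR set, microglial markers for 0, 4, and 0 of 4, astrocyte markers for 0, 2, and 0 of 4, and neuronal markers for none in any set. Hippocampal markers passed for 3, 0, and 2 of 4 genes, and of the neocortical markers Cux2 passed in the cortex. Of the other marker lists, 0 of 4 endothelial and 1 of 3 red blood cell markers passed in the cortex.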
